A study of Mus musculus with 4 samples.

Results

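The transcripts of 10 cadherin genes, *Cdh2*, *Cdh4*, *Cdh6*, *Cdh7*, *Cdh8*, *Cdh9*, *Cdh10*, *Cdh11*, *Cdh12* and *Cdh13*, were examined among the 55573 Ensembl genes counted in 4 RNA sequencing libraries. The genes were picked by symbol, and all 10 were found once in the count lists through GENCODE M21. The cells carried *Hmx3-Cre*, which drives recombination in cells that express the homeobox gene *Hmx3*, and a tdTomato reporter. They were enriched by FACS for tdTomato from mouse embryos at embryonic day 16 (E16), and the sample labels give the basal telencephalon as the dissected region, within which the study places them in the preoptic area (POA). Both *Dnmt1* wild-type (WT) libraries came from a pool of 12 embryos. Both *Dnmt1* knockout (KO) libraries came from a pool of 6 embryos with *Dnmt1 loxP2* alleles, in which Cre removes exons 4 and 5 in the *Hmx3* lineage alone. The study calls the 2 libraries of a genotype technical duplicates of pooled samples and the deposited labels call them biological replicates, so that SDs and p-values cover the variation between libraries and not necessarily that between embryos.

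Classical cadherins are calcium-dependent adhesion molecules of the cell surface. Their extracellular repeats bind cadherins of a neighbouring cell, and their cytoplasmic tail binds β-catenin and p120-catenin, which α-catenin connects to the actin cytoskeleton. Type I members such as N-cadherin (*Cdh2*) and R-cadherin (*Cdh4*) mediate strong adhesion in many tissues, whereas type II members (*Cdh6* to *Cdh12* here) are expressed in regional combinations across the developing brain and help to sort neurons into nuclei and layers. T-cadherin (*Cdh13*) has cadherin repeats but is held in the membrane by a lipid (GPI) anchor and lacks the catenin-binding tail, so that it is not a classical cadherin in the strict sense and was kept apart here.

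The total was between 8075102 and 9995968 counts per library. Levels are given as CPM, counts scaled to a library total of 1000000 after TMM normalization between libraries. *Dnmt1* itself stood at 385 and 446 CPM in WT but at 283 and 281 CPM in KO. The edgeR test gave it a log2 fold change of -0.56 with a standard error of 0.14 and an adjusted p of 0.0511. Reads over the whole gene are counted there, not over the removed exons alone. WT replicate 1 stood apart with 8.66% of its counts on mitochondrial rRNA, against 1.51% to 2.32% in the other libraries. The sorted cells carried GABAergic and POA neuron transcripts in all 4 libraries (summed level of 12 markers 1412 to 1564 CPM in WT and 1213 to 1331 CPM in KO), among them *Hmx3* with 604 to 919 counts. Most markers of astrocytes, oligodendrocytes and mural cells were higher in KO, and their values are given further below.

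DNMT1 maintains methylation at CpG dinucleotides, and the promoters of the cadherins differ in how many they hold. RefSeq promoter windows (GRCm38.p6, 250 bases before to 50 after each start) were at hand for 6 of the 10 genes. *Cdh8* had 21 CpG in its window of 300 bases, and 75.2% of all 32851 windows held fewer. *Cdh10* had 2, and 14.1% held fewer. Between them, *Cdh6* and *Cdh9* had 8 each, *Cdh12* had 9 and the 3 starts of *Cdh7* had 18, 19 and 4, against a median of 7 over all windows. The 150 bases before the start are shown for *Cdh10* and *Cdh8*, which had the fewest and the most CpG among the member windows. They are also shown for *Cdh20*, a type II cadherin outside the 10 genes that was higher in KO and had 18 CpG in its window. These stretches hold 1, 6 and 6 of the CpG counted in the windows. Capitals mark each CpG, which reads the same on both strands. 94.6% of all windows held at least 1 CpG. The *Cdh10* stretch lies inside the GENCODE gene and outside its annotated exons. The *Cdh12* window (21111202 to 21111501) also lies far inside its gene, which begins at 20449265.
Cdh10, chr15:18820179-18820328, plus strand: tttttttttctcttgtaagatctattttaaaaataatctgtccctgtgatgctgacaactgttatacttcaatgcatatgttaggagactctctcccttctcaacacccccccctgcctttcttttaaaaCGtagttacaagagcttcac
Cdh8, chr8:99416472-99416621, minus strand: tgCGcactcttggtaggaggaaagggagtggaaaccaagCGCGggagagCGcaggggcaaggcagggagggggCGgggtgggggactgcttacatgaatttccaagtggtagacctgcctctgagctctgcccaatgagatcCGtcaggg
Cdh20, chr1:104768370-104768519, plus strand: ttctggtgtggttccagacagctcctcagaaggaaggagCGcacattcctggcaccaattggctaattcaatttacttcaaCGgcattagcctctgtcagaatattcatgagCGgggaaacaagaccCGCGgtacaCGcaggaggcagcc

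In the genome, 4 of the 10 genes lie within 8.56 Mb of chromosome 15 on GRCm38. *Cdh6* (13028701 to 13173675, minus strand), *Cdh9* (16728756 to 16857094), *Cdh10* (18818947 to 19014236) and *Cdh12* (20449265 to 21589533, all on the plus strand) share this stretch with a single further protein-coding gene, *Acot10*, which sits in an intron of *Cdh12*. *Cdh8* (99024471 to 99416471, minus strand), *Cdh11* (102632095 to 102785642, minus strand) and *Cdh13* (118283733 to 119324921, plus strand) lie on chromosome 8. *Cdh7* (109982431 to 110140157) is on chromosome 1, *Cdh4* (179442431 to 179899373) on chromosome 2, both on the plus strand, and *Cdh2* (16588877 to 16809246, minus strand) on chromosome 18. They are long genes of 128 to 1140 kb with 3.54 to 11.2 kb of exons. Overlaps with other genes' exons were small, the largest being the antisense gene *Gm49127* over 6.33% of the exonic bases of *Cdh9*.

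N-cadherin was the most abundant of the 10 transcripts in every library. To compare genes, levels were expressed as CPM per kilobase of exon. *Cdh2* had 48.7 ± 1.64 CPM per kb in WT and 43.8 ± 0.778 in KO (SD, n = 2 each, as for all means below), higher than 96.6% of the tested genes in both genotypes. *Cdh4*, the other type I cadherin, followed with 17.97 ± 1.297 CPM per kb in WT and 15.4 ± 2.04 in KO. Next came *Cdh13*, *Cdh8* and *Cdh11* with 12.9 ± 1.83, 10.7 ± 1.49 and 10.5 ± 0.327 CPM per kb in WT, whose ranges overlapped between neighbours. *Cdh10* had 3.52 ± 0.833 CPM per kb in WT, and *Cdh6*, *Cdh12* and *Cdh7* had 2.301 ± 0.598, 1.84 ± 0.772 and 0.998 ± 0.459, again with overlap between neighbours. *Cdh9* was at the edge of detection with 0.172 ± 0.204 CPM per kb. In KO the order was the same but for *Cdh11* (10.3 ± 0.555 CPM per kb) and *Cdh8* (9.18 ± 0.162), which changed places.

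**Figure D1:**
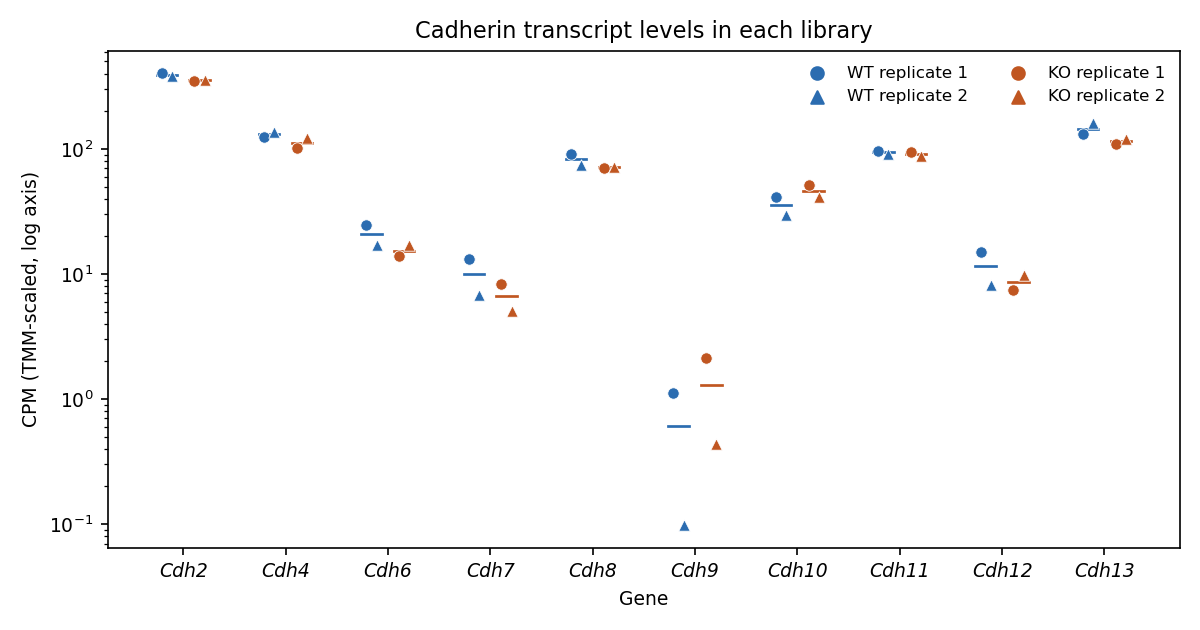
Level of each of the 10 cadherins in each library, as TMM-scaled CPM on a log axis. Points are libraries (2 WT, 2 KO) and short lines are group means. *Cdh2* is the highest and *Cdh9* the lowest in all 4 libraries, while close neighbours such as *Cdh4* and *Cdh13* change places, and the libraries differ most for *Cdh9*, which had 1 to 18 counts.

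Shares below are of these 10 genes alone. Among type II cadherins outside them, *Cdh24* had 21.3 and *Cdh22* 11.9 CPM per kb in WT (21.2 and 10.0 in KO). *Cdh20* had 2.01 CPM per kb in WT and 13.1 in KO, and *Cdh19* 0.399 and 7.13. The share of *Cdh2* was close in the 4 libraries, while those of scarcer genes varied more. *Cdh7* took 1.18% and 0.63% in WT and 0.86% and 0.51% in KO, and *Cdh12* 2.13% and 1.20% against 1.24% and 1.57%. *Cdh2* took 44.3% to 45.1% of the summed CPM per kb of the 10 genes in each library. The type I genes together took 60.9% ± 1.46 in WT and 60.6% ± 1.49 in KO, and the type II genes 27.3% ± 3.48 and 28.9% ± 1.91. The type I and type II shares differed by less between genotypes than between libraries of a genotype. The share of *Cdh2* was 44.6% and 44.3% in WT and 45.1% and 44.7% in KO, and that of *Cdh10* 3.67% and 2.73% in WT and 5.37% and 4.12% in KO, both with the KO libraries above the WT libraries, as was the share of *Cdh11* (9.62% and 9.59% in WT, 11.1% and 9.96% in KO). The summed level of the 10 genes was 111.9 and 107 CPM per kb in WT and 96.1 and 99.3 in KO, with both KO libraries below both WT libraries. With 2 libraries per genotype an exact permutation test could not bring a p under 0.05 for such a sum, and none was run.

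**Figure D2:**
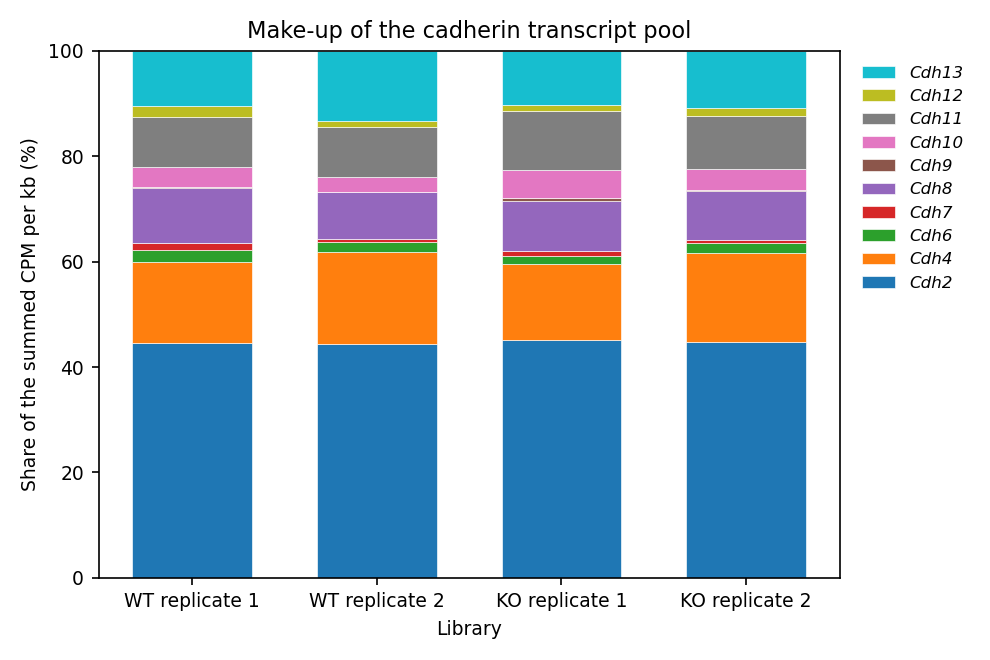
Share of each cadherin in the summed CPM per kb of the 10 genes (y axis, percent), one bar per library. *Cdh2* fills 44.3% to 45.1% of each bar and *Cdh2* and *Cdh4* together 59.5% to 61.9%.

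Which of these cadherins differed after *Dnmt1* deletion was tested with edgeR's quasi-likelihood test over all 16832 genes that passed its expression filter. Of the 10 genes, 9 passed the filter, and *Cdh9* did not. At an adjusted p under 0.05, 0 of the 9 rose and 0 fell in KO, and DESeq2 and limma-voom also called 0. The background was 7.9% of all tested genes called, 7.33% higher and 0.57% lower. At an unadjusted p under 0.05 there were 0 of the 9 as well, against 22.7% of all tested genes. In log2 fold change 8 of the 9 lay below 0, against 52.4% of all tested genes, and their median was -0.23, against -0.026 over all. With scaling by library size alone or by the upper quartile 7 of the 9 lay below 0, and with library size alone their median was -0.12 beside a median of 0.084 over all genes. With a correction of each library for its trends with exon length and GC content, 6 of the 9 lay below 0. Their median was then -0.11 beside -0.0077 over all genes. The 95% interval lay within 1 log2 unit of 0 for 6 of the 9, and for *Cdh6*, *Cdh7* and *Cdh12* it reached further. In bulk samples, fewer cells that express a gene and less RNA per cell cannot be told apart.

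*Cdh2*, which neurons use to hold on to radial glia and to each other, had 402 and 384 CPM in WT and 349 and 358 CPM in KO. The KO libraries were both the lower ones. Its KO level was 0.900-fold of WT, with a 95% interval of 0.729 to 1.11 (log2 fold change -0.15, standard error 0.13, adjusted p = 0.534). *Cdh4*, a close relative that can also pair with N-cadherin, had 124 and 137 CPM in WT and 101 and 122 CPM in KO. Again both KO libraries lay under both WT libraries, by a narrow margin for KO replicate 2. The fold was 0.854 (0.665 to 1.098, adjusted p = 0.432). Neither type I gene passed the test. The log2 fold change of *Cdh2* was larger in size than the log2 ratio between its WT libraries (0.069) or between its KO libraries (-0.036). That of *Cdh4* (-0.23) was larger in size than its WT ratio (-0.15) but smaller than its KO ratio (-0.27). The intervals leave room for a fall to 0.729-fold of WT for *Cdh2* and 0.665-fold for *Cdh4*.

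Among the better expressed type II genes, *Cdh8* had 90.6 and 74.3 CPM in WT and 70.1 and 71.9 CPM in KO, and *Cdh11* had 95.8 and 91.7 CPM in WT and 95 and 88 CPM in KO. The *Cdh8* libraries did not overlap, but KO replicate 2 and WT replicate 2 were close to each other, while those of *Cdh11* overlapped. *Cdh8*, a cadherin of forebrain circuits, had a fold of 0.862 (0.671 to 1.11, adjusted p = 0.460). Its log2 fold change of -0.21 was -0.015 with the length and GC correction, -0.072 without WT replicate 1 and -0.36 without WT replicate 2. *Cdh11*, found in mesenchyme as well as in brain, had a fold of 0.976 (0.777 to 1.23, adjusted p = 0.915) and moved least of the 9. The 8 meningeal fibroblast markers, which could share *Cdh11* with the neurons, summed to 34.4 and 36.0 CPM in WT and 49.1 and 40.9 CPM in KO. Of the 5 tested, 4 lay above 0 in log2 fold change and 1, *Foxc1*, was called higher (1.99, adjusted p = 0.0287). Over all tested genes, 52.4% lay below 0 and 7.33% were called higher. *Col1a2* had 124 to 185 counts and *Lum* at most 4 in any library, and their part in the *Cdh11* values was not tested.

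*Cdh10* was the one tested cadherin with a log2 fold change above 0. It had 41.3 and 29.5 CPM in WT and 51.8 and 41.1 CPM in KO. WT replicate 1 lay just above KO replicate 2, so that the genotypes overlapped. The log2 fold change was 0.39 (standard error 0.21, 95% interval -0.094 to 0.88, adjusted p = 0.314). The transcript of *Cdh10* has the lowest GC content of the 10 (33.8%, the others 38.6% to 54.6%). When each library was corrected for its trends with exon length and GC content, the log2 fold change of *Cdh10* was 1.07 (adjusted p = 0.00342), and with GC content alone, a correction added after the data were seen, it was 0.88 (adjusted p = 0.0175). With exon length alone it was 0.54 (adjusted p = 0.171). The GC corrections called 16.1% and 16.3% of all tested genes. Without WT replicate 1 it was 0.65 (adjusted p = 0.00340), and without WT replicate 2 it was 0.16 (adjusted p = 0.607).

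The less abundant type II genes *Cdh6*, *Cdh7* and *Cdh12* had the widest gaps between the WT libraries of the 9 tested cadherins (log2 ratio 0.54, 0.97 and 0.89), followed by *Cdh10* (0.49). *Cdh6*, a cadherin of early brain compartments and kidney, had 24.6 and 17.0 CPM in WT and 13.8 and 17.0 CPM in KO. *Cdh7* had 13.3 and 6.76 CPM in WT and 8.32 and 5.07 CPM in KO. *Cdh12*, a cadherin of the brain, had 15 and 8.13 CPM in WT and 7.49 and 9.80 CPM in KO. In each, WT replicate 1 was the highest library and WT replicate 2 fell among the KO libraries. Their log2 fold changes were -0.43 (95% interval -1.01 to 0.16), -0.57 (-1.52 to 0.37) and -0.41 (-1.22 to 0.40), with adjusted p-values of 0.362, 0.447 and 0.534. In 6 of the 9 tested cadherins the WT libraries differed from each other by more than the genotypes did, as in 50.9% of all tested genes. Without WT replicate 2 all 3 genes passed an adjusted p of 0.05 as lower in KO (*Cdh6* 0.0191, *Cdh7* 0.00795 and *Cdh12* 0.0279). Without WT replicate 1 none of the 3 did (0.719, 0.969 and 0.889). In such fits the spread comes from the KO libraries alone and is a trend shared by all genes, the lone WT library is assumed to vary like them, and 21.3% (without WT replicate 1) and 23.3% (without WT replicate 2) of all tested genes were called.

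In WT, *Cdh9* had 9 counts and 1 count, and in KO it had 18 and 4. In both genotypes replicate 1 held more counts than replicate 2, and the genotypes overlapped. Without a filter on low counts its log2 fold change was 1.13 (standard error 0.94, adjusted p = 0.665), so that a difference was not detectable at this depth. The value turned on single libraries, with 3.53 without WT replicate 1 (adjusted p = 0.0941), 0.18 without WT replicate 2 (adjusted p = 0.939) and 1.86 without KO replicate 2 (adjusted p = 0.736).

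*Cdh13* had the smallest p of the 9 tested genes (0.0701, unadjusted), followed by *Cdh10* (0.0998), which had the smaller one with library size only, the upper quartile, no filter, a filter of 10 counts in every library, the replicate block and the length or GC corrections, and when WT replicate 1 or KO replicate 2 was left out. It had 131 and 160 CPM in WT and 110 and 121 CPM in KO, with both KO libraries below both WT libraries. The fold was 0.796 (95% interval 0.619 to 1.02, log2 fold change -0.33, standard error 0.16, adjusted p = 0.259). Without WT replicate 1, where KO is set against the higher WT library, the log2 fold change was -0.47 (adjusted p = 0.00745), and without WT replicate 2 it was -0.19 (adjusted p = 0.423). In all, 4 of the 9 tested cadherins (*Cdh2*, *Cdh4*, *Cdh8* and *Cdh13*) had both KO libraries below both WT libraries, against 25.2% of all tested genes, and 0 had both above, against 28.3%. Taken in either direction, 53.5% of all tested genes had libraries that did not overlap. Over the 4 libraries, the genes most like *Cdh13* were sought among 14285 genes with at least 10 counts in every library, by the root mean square difference in centred log2(CPM + 1). They were *Gm20457* (0.0103), *H2afy2* (0.0106) and *BC022960* (0.0159). The added 1 shrinks differences of low genes such as *Gm20457*, which had 10 to 22 counts and a log2 fold change of -0.53. Without it, a choice made after the data were seen, *Gm20457* was at 0.117 and ranked 1461, *BC022960* at 0.0293 and ranked 34, and *H2afy2* (1507, 2288, 1320 and 1549 counts, log2 fold change -0.33) came first at 0.0109, before *Lhx5* (0.0158) and *Trir* (0.0166). None of the 5 passed the threshold (adjusted p 0.24 to 0.613).

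**Figure D3:**
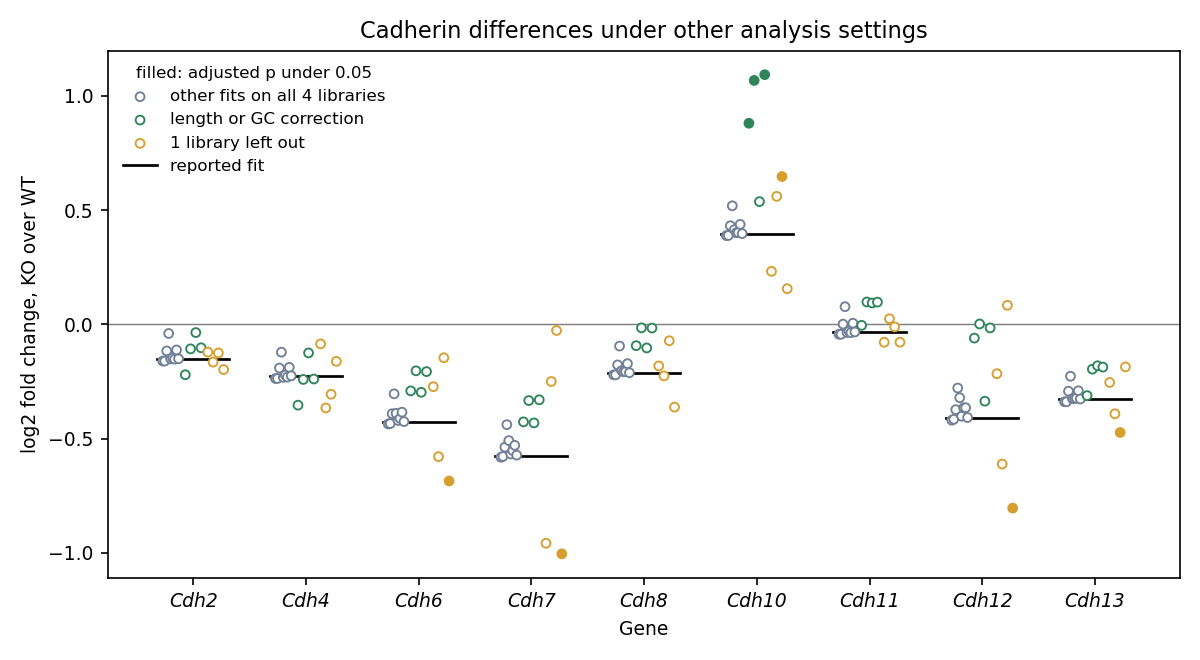
Log2 fold change of the 9 tested cadherins, KO over WT (y axis), in the reported fit (black line) and under other settings (points, filled where the adjusted p was under 0.05). Filled points are seen for *Cdh10* with the GC corrections and, when a WT library was left out, for *Cdh6*, *Cdh7*, *Cdh10*, *Cdh12* and *Cdh13*.

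Of 9 further type I and type II genes, 6 were tested in the same libraries, and 2 were higher and 0 lower in KO, beside the 7.33% and 0.57% of all tested genes. *Cdh20*, a type II cadherin, rose from 66 and 81 counts to 438 and 480 counts, which is 8.06 ± 0.181 CPM against 52.5 ± 0.56 CPM. Its fold was 6.501 (95% interval 4.85 to 8.71, adjusted p = 5.81e-05). *Cdh19*, a type II cadherin known from Schwann cells and their precursors, rose from 22 and 7 counts to 304 and 226 counts, a fold of 18.6 (8.53 to 40.5, adjusted p = 0.00118). With at least 10 counts required in every library *Cdh19* was not tested. *Cdh22* (fold 0.844, 0.635 to 1.12), *Cdh24* (0.996, 0.785 to 1.26), *Cdh18* (0.857, 0.566 to 1.297) and *Cdh15* (1.07, 0.402 to 2.85) did not pass the threshold. E-cadherin (*Cdh1*), the cadherin of epithelia, had 0 counts in all 4 libraries, which allows up to 0.294 to 0.372 CPM at 3 counts, and VE-cadherin (*Cdh5*), the cadherin of endothelium, had 8 to 11 counts. The median log2 fold change of the 6 was 0.046.

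Of 9 catenins, the proteins that bind the cadherin tail or link it to actin, 1 was higher and 0 were lower in KO (median log2 fold change 0.054), beside the 7.33% and 0.57% of all tested genes. The gene called was δ-catenin (*Ctnnd2*), a neural relative of p120-catenin, with 206 and 218 CPM in WT and 308 and 313 CPM in KO, a fold of 1.46 (95% interval 1.18 to 1.81, adjusted p = 0.0432). β-Catenin (*Ctnnb1*), the most abundant of them, had 797 and 934 CPM in WT and 723 and 709 CPM in KO, a fold of 0.827 (0.656 to 1.043, adjusted p = 0.307). αN-catenin (*Ctnna2*), the neuronal link to actin, had 436 CPM in both WT libraries and 350 and 322 CPM in KO, a fold of 0.771 (0.622 to 0.954, adjusted p = 0.144). It was lower in both KO libraries without passing the threshold over all genes. *Ctnna1* (fold 1.04, 0.820 to 1.31) and p120-catenin (*Ctnnd1*, fold 1.06, 0.704 to 1.597) overlapped between genotypes. αT-catenin (*Ctnna3*) was scarce, at 11 and 13 counts in the WT libraries against 50 and 26 in those of KO, and did not pass (fold 3.31, 1.402 to 7.81, adjusted p = 0.103). *Ctnnd2* was not called when either KO library was left out, where 0 catenins were higher. Without WT replicate 1, *Ctnnb1* was among 3 catenins called lower.

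**Figure D4:**
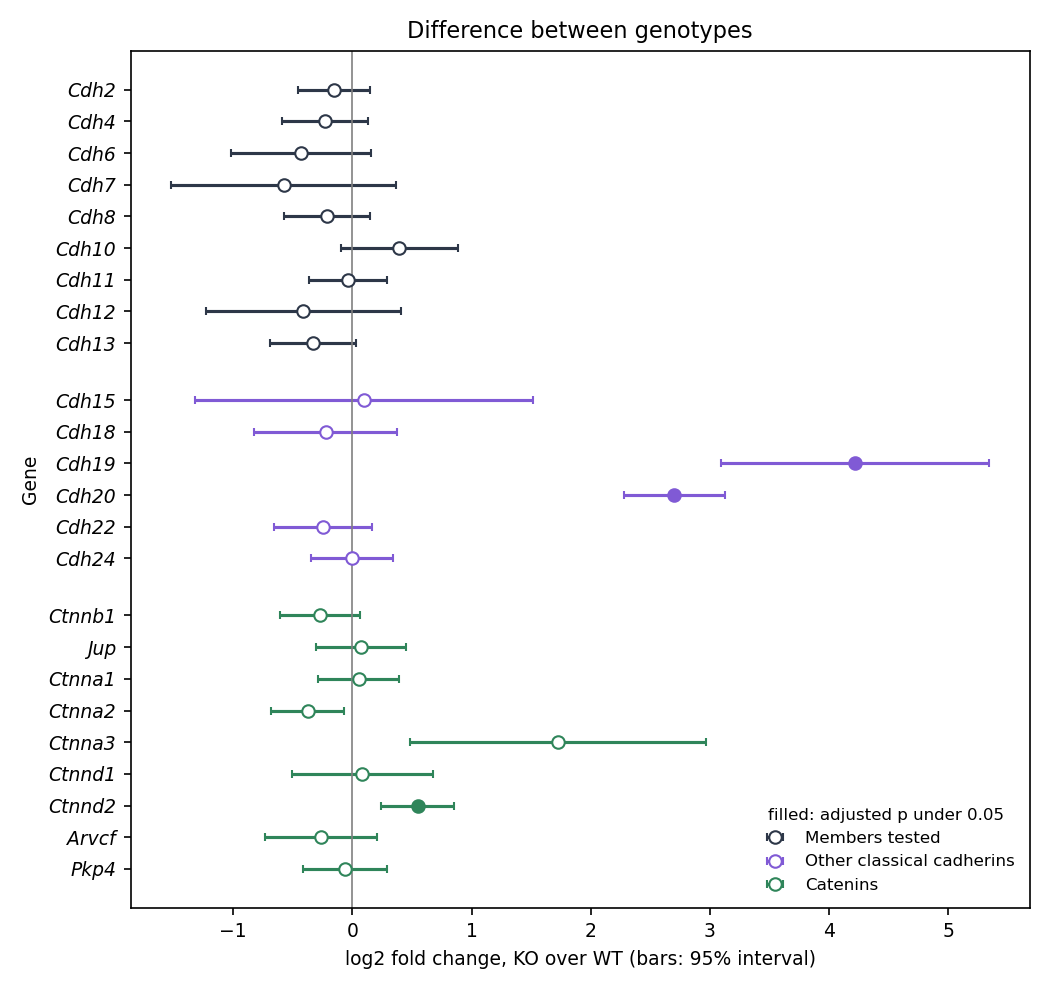
Log2 fold change, KO over WT, with its 95% interval (x axis) for the 9 tested members, 6 other classical cadherins and 9 catenins. Filled points passed an edgeR adjusted p of 0.05. The members lie between -0.57 and 0.39, while *Cdh19* and *Cdh20* lie at 4.22 and 2.701.

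Of 20 partners of the adherens junction, 2 were higher and 0 lower in KO (median log2 fold change 0.048), again a share near the 7.33% and 0.57% of all tested genes. Vinculin (*Vcl*), which binds α-catenin under tension, rose from 83 and 116 counts to 776 and 760 counts, a fold of 8.09 (95% interval 6.16 to 10.6, adjusted p = 2.25e-05). ZO-1 (*Tjp1*), a scaffold of tight and adherens junctions, rose from 813 and 842 counts to 1303 and 1561 counts, a fold of 1.78 (1.38 to 2.301, adjusted p = 0.0154). Without KO replicate 2 *Tjp1* was not called, so that 1 partner remained, and without WT replicate 1 there were 5 higher and 1 lower. Nectins and afadin (*Afdn*), the adhesion system that works beside cadherins, did not pass in any of their 5 genes. Of 13 genes for cadherin processing, 2 were higher and 0 lower (median 0.11), which with so few genes is not set apart from the same 7.33% and 0.57%. These were *Pcsk6*, a proprotein convertase, with a fold of 3.76 (2.26 to 6.28, adjusted p = 0.00809), and *Mmp14*, a membrane metalloprotease, with a fold of 2.44 (1.87 to 3.19, adjusted p = 0.0022). *Furin* and the sheddase *Adam10* did not pass (log2 fold change 0.40 and -0.36).

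Markers of other cell types were also among the genes higher in KO. The 10 astrocyte markers, all higher in KO, summed to 207 and 186 CPM in WT and 3388 and 3234 CPM in KO, and *Gfap* was at 0 counts in both WT libraries. Of 9 oligodendrocyte markers 8 were higher, with a sum of 135 and 161 CPM in WT and 654 and 622 CPM in KO. Of 8 mural cell markers 6 were higher, with a sum of 49.5 and 54.4 CPM in WT and 410.5 and 399.7 CPM in KO, and *Acta2* was at 0 counts in both WT libraries. The part of these cells in the rise of *Cdh19*, *Cdh20*, *Vcl*, *Ctnnd2*, *Tjp1*, *Pcsk6* and *Mmp14* was not tested. Radial glia markers summed to 1033 and 1041 CPM in WT and 1759 and 1645 CPM in KO (2 of 8 higher), of which *Slc1a3*, which astrocytes also express, had 70.3 and 76.5 CPM in WT and 593 and 546 CPM in KO. Oligodendrocyte precursor markers summed to 1488 and 1558 CPM against 1888 and 1999 CPM (1 of 6 higher). Of the microglia markers 1 of 8 tested was higher, of the 8 endothelial markers 0 were called (4 had an unadjusted p under 0.05), and of the choroid plexus markers 1 of 4 tested, *Ttr*, was lower. Over all tested genes, 7.33% were called higher and 0.57% lower, and 22.7% had an unadjusted p under 0.05.

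General neuron markers, like 8 of the 9 cadherins, lay mostly below 0 in log2 fold change. The 10 neuron markers summed to 7722 and 7106 CPM in WT and 5418 and 5422 CPM in KO, with 2 lower and 9 below WT in both KO libraries. The 12 GABAergic and POA markers were lower in 0 genes and higher in 1, *Nkx6-2*, which oligodendrocytes also express, but 10 of them lay below 0, 5 had both KO libraries below both WT libraries, and their median log2 fold change was -0.25. Of all tested genes, 52.4% lay below 0, 25.2% had both KO libraries below both WT libraries and 0.57% were called lower. Glutamatergic neuron markers summed to 479 and 453 CPM in WT and 227 and 258 CPM in KO, with 3 of 7 lower, although the sort was for the *Hmx3* lineage. The part of these changes in the cadherin values was not tested.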

How the data were processed

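RNA of FACS-enriched tdTomato-positive E16 cells was available as 4 libraries, 2 *Dnmt1* WT and 2 *Dnmt1* KO, grouped by the sample titles. For each library the authors deposited a list of Ensembl genes with their raw counts of reads. Per the submitters' processing notes, CASAVA 1.8.2, STAR 2.5.2a and featureCounts 1.5.0-p1 were used with mm10 (GRCm38), while annotation and strand setting are not given in the sources used here. Of 55573 identifiers, 55480 matched GENCODE M21 (GRCm38). Totals were 8075102 to 9995968 counts, where 3 counts are 0.294 to 0.372 CPM, a floor that covers counting error only. The 2 libraries of each genotype were farther apart than sampling noise allows, with a chi-square divided by its degrees of freedom of 58.2 in WT and 4.31 in KO.

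Genes were filtered with filterByExpr, scaled by TMM and tested in R 4.3.3 with the quasi-likelihood test of edgeR 4.0.16, in a model of genotype alone. Benjamini-Hochberg adjustment ran over 16832 genes, with calls at an adjusted p under 0.05. Standard errors and 95% intervals came from the test statistic. CPM per kb used merged exon lengths. Promoter sequences were from RefSeq. Alternatives were DESeq2 1.42.0, limma-voom (limma 3.58.1), other scalings and filters, the replicate number as a block, corrections for length and GC content (mgcv 1.9.3), removal of mitochondrial and rRNA-like genes, other thresholds and each library left out. The fits were also run on simulated counts. Their spread was common to both genotypes, unlike that of the libraries, so that the outcome is not used here.

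The 10 cadherins and all gene lists were chosen with earlier results of these data known. Named genes are the 10, *Dnmt1*, 7 fixed cadherins and catenins, list genes past the threshold and the 3 genes most like the member with the smallest p. Other named genes were chosen after their values were seen.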

Additional observations from a re-analysis of the deposited data

How the results depend on the processing

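Of 117 values from other fits on all 4 libraries for the log2 fold changes of the 9 tested cadherins, 107 kept their direction and their side of the threshold, and so did 29 of 36 with 1 library left out. The number of cadherins higher in KO was 1 (*Cdh10*) in place of 0 with the length and GC correction, with the GC correction alone and with the correction and the replicate block together. The log2 fold change of *Cdh10* was then 1.07, 0.88 and 1.09. The sign of *Cdh11*, which was close to 0, turned with library size only (0.077), the upper quartile (0.0049), at least 10 counts in every library (0.001), the length and GC correction (0.098, and 0.097 with the block) and the length correction (0.094), and that of *Cdh12* with the length and GC correction (0.0017). The cause was not tested.

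With 1 library left out, the number of cadherins was 0 to 1 higher and 0 to 3 lower, and log2 fold changes ranged from -0.20 to -0.12 for *Cdh2*, -0.37 to -0.086 for *Cdh4*, -0.69 to -0.15 for *Cdh6*, -1.004 to -0.027 for *Cdh7*, -0.36 to -0.072 for *Cdh8*, 0.18 to 3.53 for *Cdh9* (tested in 3 of 4), 0.16 to 0.65 for *Cdh10*, -0.078 to 0.024 for *Cdh11*, -0.80 to 0.083 for *Cdh12* and -0.47 to -0.19 for *Cdh13*. Catenins were then 0 to 2 higher and 0 to 3 lower, junction partners 1 to 5 higher and 0 to 1 lower, and processing genes 0 to 1 lower. On all 4 libraries, 2 catenins in place of 1 were higher with library size only, no filter, the GC correction alone and the length and GC correction with or without the block, and 1 was lower with the GC correction alone. In place of 2 junction partners, 4 were higher with library size only, the replicate block or the GC correction alone, and 5 with the length and GC correction with or without the block. With at least 10 counts in every library 1 of the other classical cadherins was higher in place of 2.

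Whether the same-numbered libraries share more than a number is not stated in the sources used here. Their deviations from the group means correlated by 0.183 across genes. With the replicate number as a block, 2244 of all tested genes were called in place of 1329, and 0 of the 9 cadherins (2 at an unadjusted p under 0.05). The median log2 fold change of the 9 was -0.23 with the replicate block, as without it, but -0.11 with the length and GC correction (6 of 9 below 0), -0.10 with the block added to it, -0.12 with length alone or library size only and -0.049 without WT replicate 1, where *Cdh9* made 10. With the length and GC correction 2709 genes were called, and 883 with at least 10 counts in every library. With 1 library left out the count was 951 to 4209. Without a WT library it was 3878 or 4209 and without a KO library 951 or 1071. At 1 to 18 counts per library, *Cdh9* was too shallow for a comparison.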
